A study of Mus musculus with 8 samples.

Results

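Messenger RNA of 9 transcription factors that mark memory or terminal effector T cells was examined in donor T cells after allogeneic hematopoietic cell transplantation (HCT). The factors are Tcf7, Lef1, Bach2, Foxo1, Id2, Id3, Zeb1, Zeb2 and Prdm1. They were chosen by name, as regulators of the choice between a memory and a terminally differentiated state. The deposited tables hold 25078 gene rows, among them all 9 factors, and all 9 were among the 12428 genes that passed a filter on low counts. T cells came from the spleen on day 6 after HCT. Donors were C57BL/6 mice, either wild type (WT) or Stat3 fl/fl CD4-Cre mice (STAT3KO), in which a CD4-driven Cre deletes floxed Stat3 sequence from T cells of both lineages. Recipients of every group were lethally irradiated WT BALB/c mice, and they also received T cell depleted bone marrow from WT C57BL/6 donors. Donor-type TCRβ+ CD4+ or CD8+ cells were sorted, which gave 4 groups of 2 libraries each, named WT or STAT3KO CD4 and WT or STAT3KO CD8. Each library pooled lymphocytes from 3 recipients, so that a replicate is a pool. The tests set a difference against the spread between pools, not between mice. The ages of the mice are not given in the sources used here.

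The factors work as opposed sets. Tcf7 encodes TCF-1 and Lef1 its close relative, HMG-box proteins that maintain stem-like and memory T cells. Bach2 represses effector genes, and Foxo1 drives genes of quiescence and lymph node homing. Id2 and Id3 block the DNA binding of E proteins, with Id2 linked to effector and Id3 to memory cells. Zeb1 and Zeb2 are zinc finger repressors with opposed roles in memory and terminal effector CD8+ T cells, and Prdm1 encodes BLIMP-1, a repressor that promotes terminal differentiation. STAT3 is the transcription factor downstream of cytokines such as IL-6 and IL-21.

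Libraries held between 20171396 and 23282757 counts. Levels between libraries are given as TMM-scaled CPM, counts brought to one library size by the total count and a factor for composition. Stat3 checked the labels. It lay between 428 and 436 CPM in the WT CD4 and WT CD8 libraries and between 119.7 and 143 CPM in the STAT3KO libraries, so a part of the transcript was still counted. Cd4 was at least 1361 CPM in CD4 libraries and at most 8.16 CPM in CD8 libraries, and Cd8a was at least 819 CPM in CD8 libraries and at most 15.996 CPM in CD4 libraries. The 6 T cell markers summed to between 4197 and 5034 CPM in every library. Of the 10 macrophage and monocyte markers none was at 0, and their summed level was 27.4 to 63.4 CPM in the libraries numbered 1 and 100.4 to 188 CPM in those numbered 2. The complement genes C1qa, C1qb and C1qc, which macrophages express, summed to 3.54 to 9.55 CPM in the former and 35.6 to 57.1 CPM in the latter. The B cell sum was 102.9 to 124 CPM in WT CD4 and 152 to 171 CPM in STAT3KO CD4 libraries, mostly Cd22 (106 and 91.7 against 149 and 168 CPM). Pax5 went the other way, at 16.9 and 9.59 CPM in WT CD4 against 0.200 and 0.503 CPM in STAT3KO CD4 libraries. In CD8 libraries the sum was 38.2 to 55.6 CPM, with Cd79b at 11.5 to 12.9 CPM. Ms4a1 and Blk were each at most 0.1501 CPM. Plasma cell markers summed to 2.35 to 3.63 CPM in the libraries numbered 1 and 6.33 to 20.2 CPM in those numbered 2, and neutrophil markers to 3.30 to 10.53 and 6.99 to 21.1 CPM. The dendritic cell sum of 13.4 to 274 CPM was nearly all Itgax and the NK cell sum of 14.3 to 26.5 CPM nearly all Klrb1c, with Siglech, Clec9a and Klra8 at 0 throughout. Erythroid markers summed to at most 5.73 CPM, with 4 hemoglobin genes at 0. The part of these cells in the results was not tested. Because the replicate 2 library of every group stood apart in this way, differences within each replicate number are given beside the called factors below.

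Promoter sequences were taken from RefSeq (GRCm38.p6, 250 bases before to 50 bases after a transcript start), in which 8 of the 9 factors matched 15 entries. A STAT consensus (TTCNNNGAA) was searched on both strands, as were a FOXO motif (GTAAACA), a ZEB motif (CAGGTG) and a TCF/LEF motif (CTTTGAT), the last 3 because FOXO1, ZEB1, ZEB2, TCF-1 and LEF-1 are among the factors themselves. The windows of Tcf7 and Prdm1, the factors with the largest called difference in each direction in CD4+ T cells, are shown with a Zeb2 window that holds the STAT motif. Capitals mark motif matches.
Tcf7, first window, chr11:52282965-52283264, minus strand: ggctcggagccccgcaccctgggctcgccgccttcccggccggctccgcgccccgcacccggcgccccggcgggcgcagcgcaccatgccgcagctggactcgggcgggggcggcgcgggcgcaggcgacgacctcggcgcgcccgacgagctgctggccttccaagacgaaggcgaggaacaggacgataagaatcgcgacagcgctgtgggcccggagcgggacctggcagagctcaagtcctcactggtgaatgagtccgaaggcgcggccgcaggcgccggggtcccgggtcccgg
Tcf7, second window, chr11:52282546-52282845, minus strand: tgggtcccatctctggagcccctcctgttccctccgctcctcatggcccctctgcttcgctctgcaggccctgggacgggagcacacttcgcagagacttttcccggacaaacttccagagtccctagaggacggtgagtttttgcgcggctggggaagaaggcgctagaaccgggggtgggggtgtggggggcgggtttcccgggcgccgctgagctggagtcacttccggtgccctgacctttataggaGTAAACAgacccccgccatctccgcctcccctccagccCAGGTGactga
Prdm1, chr10:44458699-44458998, minus strand: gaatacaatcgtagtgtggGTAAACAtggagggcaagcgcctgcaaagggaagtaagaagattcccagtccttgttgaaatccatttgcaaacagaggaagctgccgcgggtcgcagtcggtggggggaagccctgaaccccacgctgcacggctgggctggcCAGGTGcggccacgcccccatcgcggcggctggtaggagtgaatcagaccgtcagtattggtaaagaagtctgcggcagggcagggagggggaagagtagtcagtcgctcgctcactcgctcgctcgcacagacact
Zeb2, chr2:45113230-45113529, minus strand: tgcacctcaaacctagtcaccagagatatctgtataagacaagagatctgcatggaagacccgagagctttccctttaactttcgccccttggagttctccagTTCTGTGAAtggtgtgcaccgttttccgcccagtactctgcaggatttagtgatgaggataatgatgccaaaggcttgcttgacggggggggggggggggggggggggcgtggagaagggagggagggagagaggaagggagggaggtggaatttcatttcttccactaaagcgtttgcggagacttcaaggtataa

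The first Tcf7 window starts from the transcript start of the deposited gene model and holds none of the 4 motifs. Most of this window follows an atg that opens a reading frame without a stop up to the window's end. It may thus be coding rather than promoter sequence, and bases before it were not searched. The second Tcf7 window and the Prdm1 window each hold 1 FOXO and 1 ZEB motif. In Zeb2 the STAT match is TTCTGTGAA, at position -147 from its start, and a window of another Zeb2 start overlaps the same bases. Neither window lies at the transcript start of the deposited gene model, and the Zeb2 window that does holds no STAT match. Bach2 holds a STAT match, TTCGTTGAA, at position -140. In all, the STAT motif was in 3 of the 15 entries, which hold 2 sites (1 in Bach2 and 1 shared by both Zeb2 windows), against 8.29% of the 32817 RefSeq entries of this length. The ZEB motif was in 3 entries (Tcf7, Lef1 and Prdm1, background 20.2%), the FOXO motif in 2 (background 3.65%) and the TCF/LEF motif in 0 (background 3.73%). No match overlapped a match of another motif. A match is only a run of letters, and whether any protein binds there was not measured.

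Transcript levels of the factors differed widely. Between genes they are given as RPKM, in which counts are scaled by exon length and library size, with the mean ± SD of 2 libraries. In WT CD4+ T cells, Tcf7 stood highest at 511 ± 21.8 RPKM, above 99.5% of the genes tested, and Id2 followed at 299 ± 4.59 RPKM. Lef1 was at 56.4 ± 1.77 RPKM. The next 2, Id3 at 33.6 ± 27.97 and Foxo1 at 29.9 ± 4.56 RPKM, overlapped in their libraries. The lower Id3 library also lay within the range of the next pair. These were Prdm1 at 13.2 ± 3.38 and Zeb1 at 12.6 ± 2.03 RPKM, which overlapped as well. Bach2 at 2.95 ± 0.0514 RPKM and Zeb2 at 0.839 ± 0.0565 RPKM were the lowest, with Zeb2 above only 16.9% of tested genes. In STAT3KO CD4+ T cells Id2 stood first, at 311 ± 18.5 RPKM, and Tcf7 second, at 145 ± 9.18 RPKM. The order of these 2 was the same in CD8+ T cells, where Id2 was at 345 ± 1.20 RPKM in WT and 274 ± 45.1 RPKM in STAT3KO libraries, and Tcf7 at 121 ± 24.3 and 55.5 ± 6.29 RPKM. Zeb2 was the lowest of the 9 in every group, at most 1.19 ± 0.0583 RPKM in WT CD8+ T cells.

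As compared with WT CD4+ T cells, STAT3KO CD4+ T cells held less Tcf7, Zeb2 and Lef1 and more Prdm1 mRNA. Tcf7 fell to 28.9% and Zeb2 to 44.4% of the WT level, Lef1 to 69.0%, and Prdm1 rose 1.91-fold. A gene was called where edgeR's quasi-likelihood test gave a Benjamini-Hochberg adjusted p under 0.05 over the 12428 genes. By this rule, 4 of the 9 factors were called, 3 lower and 1 higher. Of all genes tested, 11.6% were called, 5.08% lower and 6.54% higher. The median log2 fold change was -0.30 over the factors and 0.02 over all genes tested. For STAT3KO against WT in CD8+ T cells, 1 of the 9 factors was called (Tcf7, lower, to 46.1% of WT), where 2.07% of all genes were called, 0.732% lower and 1.34% higher. The median was -0.21 over the factors and -0.01 over all genes. The WT and STAT3KO libraries did not overlap for 6 of the 9 factors in CD4+ T cells, as for 53.5% of all genes, and for 4 of the 9 in CD8+ T cells, as for 49.7% of all genes. In these bulk libraries, fewer cells that express a gene and less of its mRNA per cell cannot be told apart.

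Tcf7 (mm10 chromosome 11, 52252283 to 52283014, minus strand) was at 1452 and 1345 CPM in the WT CD4 pair and at 420.0 and 389 CPM in the STAT3KO CD4 pair. Every STAT3KO library lay far below both WT libraries. The log2 fold change was -1.79 (SE 0.17, 95% confidence interval -2.17 to -1.40, adjusted p 0.0014). It was -1.79 within replicate 1 and -1.79 within replicate 2, and Tcf7 was called under each of the 17 alternatives, at log2 fold changes from -1.87 to -1.74.

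Tcf7 in CD8+ T cells was at 285 and 386 CPM in the WT pair and at 141 and 168 CPM in the STAT3KO pair, and the groups did not overlap either. Its log2 fold change was -1.12 (SE 0.16, 95% confidence interval -1.50 to -0.74, adjusted p 0.0251), and it was -1.02 within replicate 1 and -1.20 within replicate 2. The direction held in all 17 alternatives but the call in 11 of them. The adjusted p was 0.0763 with only the 4 CD8 libraries in the fit. With 1 library left out, it was 0.1096 for the second WT CD8 library, 0.128 and 0.0952 for the first and the second STAT3KO CD8 library, and 0.0561 and 0.0577 for those of STAT3KO CD4.

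Lef1 (chromosome 3, 131110297 to 131224357, plus strand) was at 214 and 201 CPM in the WT CD4 pair and at 162 and 125 CPM in the STAT3KO CD4 pair. Both STAT3KO libraries lay below both WT libraries, with a log2 fold change of -0.54 (SE 0.14, 95% confidence interval -0.86 to -0.21, adjusted p 0.0481). Within replicate 1 the difference was -0.41 and within replicate 2 it was -0.69. The adjusted p stood close to the threshold, and 9 of the 17 alternatives called Lef1 (adjusted p from 0.00523 to 0.232). It rose to 0.0854 with only the 4 CD4 libraries, to 0.122 or 0.120 without either WT CD4 library and to 0.232 without the second STAT3KO CD4 library. It was also between 0.0548 and 0.0827 without any single CD8 library. Among CD8+ T cells, where Lef1 was at 155 and 178 CPM in the WT pair and at 167 and 169.9 CPM in the STAT3KO pair, the groups overlapped and the log2 fold change was 0.02 (95% confidence interval -0.31 to 0.34).

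Bach2 and Foxo1 showed no called difference between genotypes. Bach2 (chromosome 4, 32417435 to 32586108, plus strand) was at 25.5 and 24.5 CPM in the WT CD4 pair and at 25.4 and 23.4 CPM in the STAT3KO CD4 pair, overlapping groups with a log2 fold change of -0.04 (95% confidence interval -0.44 to 0.37). The CD8+ T cells held Bach2 at 9.55 and 13.8 CPM in the WT pair and at 14.3 and 15.9 CPM in the STAT3KO pair. Both STAT3KO libraries were the higher ones there, yet the log2 fold change of 0.37 (SE 0.18) had an interval of -0.05 to 0.79 and an adjusted p of 0.311. Foxo1 (chromosome 3, 52268337 to 52350109, plus strand) lay between 144 and 189 CPM in all 8 libraries, with overlap in both lineages. Its log2 fold change was -0.16 (95% confidence interval -0.47 to 0.15) in CD4+ T cells, with 0.14 (95% confidence interval -0.17 to 0.45) for the CD8+ T cells.

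Id2 (chromosome 12, 25093799 to 25096092, minus strand) was at 379.6 and 382 CPM in the WT CD4 pair and at 418 and 389 CPM in the STAT3KO CD4 pair. The CD8+ libraries held Id2 at 438 and 447 CPM in the WT pair and at 392 and 315 CPM in the STAT3KO pair. The STAT3KO libraries were thus the higher ones in CD4+ and the lower ones in CD8+ T cells, without overlap in either, which by itself is what 53.5% and 49.7% of all genes showed. Neither difference was called, with log2 fold changes of 0.08 (SE 0.12, adjusted p 0.726) and -0.33 (SE 0.12, adjusted p 0.213).

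Id3 (chromosome 4, 136143822 to 136145392, plus strand) differed more between the replicates of a group than between the genotypes. With replicate 1 first, the WT CD4 pair held 51.3 and 13.1 CPM, the STAT3KO CD4 pair 34.6 and 11.7 CPM, the WT CD8 pair 15.04 and 5.35 CPM and the STAT3KO CD8 pair 9.21 and 4.56 CPM. The library numbered 1 was the higher one in every group, so WT and STAT3KO libraries overlapped. Within replicates 1 and 2 the STAT3KO library was the lower one, with log2 differences of -0.57 and -0.16 for CD4+ T cells. For CD8+ T cells these differences were -0.71 and -0.23. The log2 fold change was -0.48 (SE 0.76, 95% confidence interval -2.24 to 1.28) in CD4+ T cells. For CD8+ T cells it was -0.57 (SE 0.81, 95% confidence interval -2.46 to 1.32). These were the widest intervals among the 9 factors.

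Zeb2 (chromosome 2, 44983512 to 45117442, minus strand) was at 9.43 and 10.2 CPM in the WT CD4 pair and at 3.15 and 5.53 CPM in the STAT3KO CD4 pair, from 189 and 216 counts against 63 and 121 counts. Both STAT3KO libraries were lower, with a log2 fold change of -1.17 (SE 0.27, 95% confidence interval -1.79 to -0.55, adjusted p 0.0298). Within replicate 1, where the C1q genes were low, the difference was -1.58, and within replicate 2 it was -0.88. The adjusted p was 0.0616 with only the 4 CD4 libraries, 0.0587 or 0.1095 without either WT CD4 library and 0.116 without the first STAT3KO CD4 library. Over the 17 alternatives it ranged from 0.0015 to 0.116, and 13 called Zeb2. Macrophages also express Zeb2, and the part of their RNA in its level was not tested. Zeb2 in CD8+ T cells was at 14.4 and 13.7 CPM in the WT pair and at 9.98 and 13.1 CPM in the STAT3KO pair. The 2 nearest libraries there were only a little apart, and the log2 fold change was -0.29 (95% confidence interval -0.87 to 0.30, adjusted p 0.606).

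Zeb1 was at 68.2 and 84.3 CPM in the WT CD4 pair and at 58.7 and 65.1 CPM in the STAT3KO CD4 pair. Its log2 fold change was -0.30 (SE 0.15, 95% confidence interval -0.66 to 0.06, adjusted p 0.257), although both STAT3KO libraries were lower. Zeb1 in CD8+ T cells was at 49.8 and 63.0 CPM in the WT pair and at 46.9 and 50.7 CPM in the STAT3KO pair, which overlapped, with a log2 fold change of -0.21 (95% confidence interval -0.57 to 0.15).

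Prdm1 (chromosome 10, 44437174 to 44458748, minus strand) was at 81.6 and 55.7 CPM in the WT CD4 pair and at 140.2 and 122 CPM in the STAT3KO CD4 pair. Both STAT3KO libraries were higher, with a log2 fold change of 0.94 (SE 0.19, 95% confidence interval 0.50 to 1.37, adjusted p 0.0192). The difference was 0.78 within replicate 1 and 1.14 within replicate 2. The adjusted p was 0.0754 without the second WT CD4 library and 0.123 or 0.0686 without either STAT3KO CD4 library, and 14 of the 17 alternatives called Prdm1. Prdm1 in CD8+ T cells was at 169 and 148 CPM in the WT pair and at 148 and 174 CPM in the STAT3KO pair. These groups overlapped, and the log2 fold change was 0.02 (95% confidence interval -0.41 to 0.45).

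**Figure D1:**
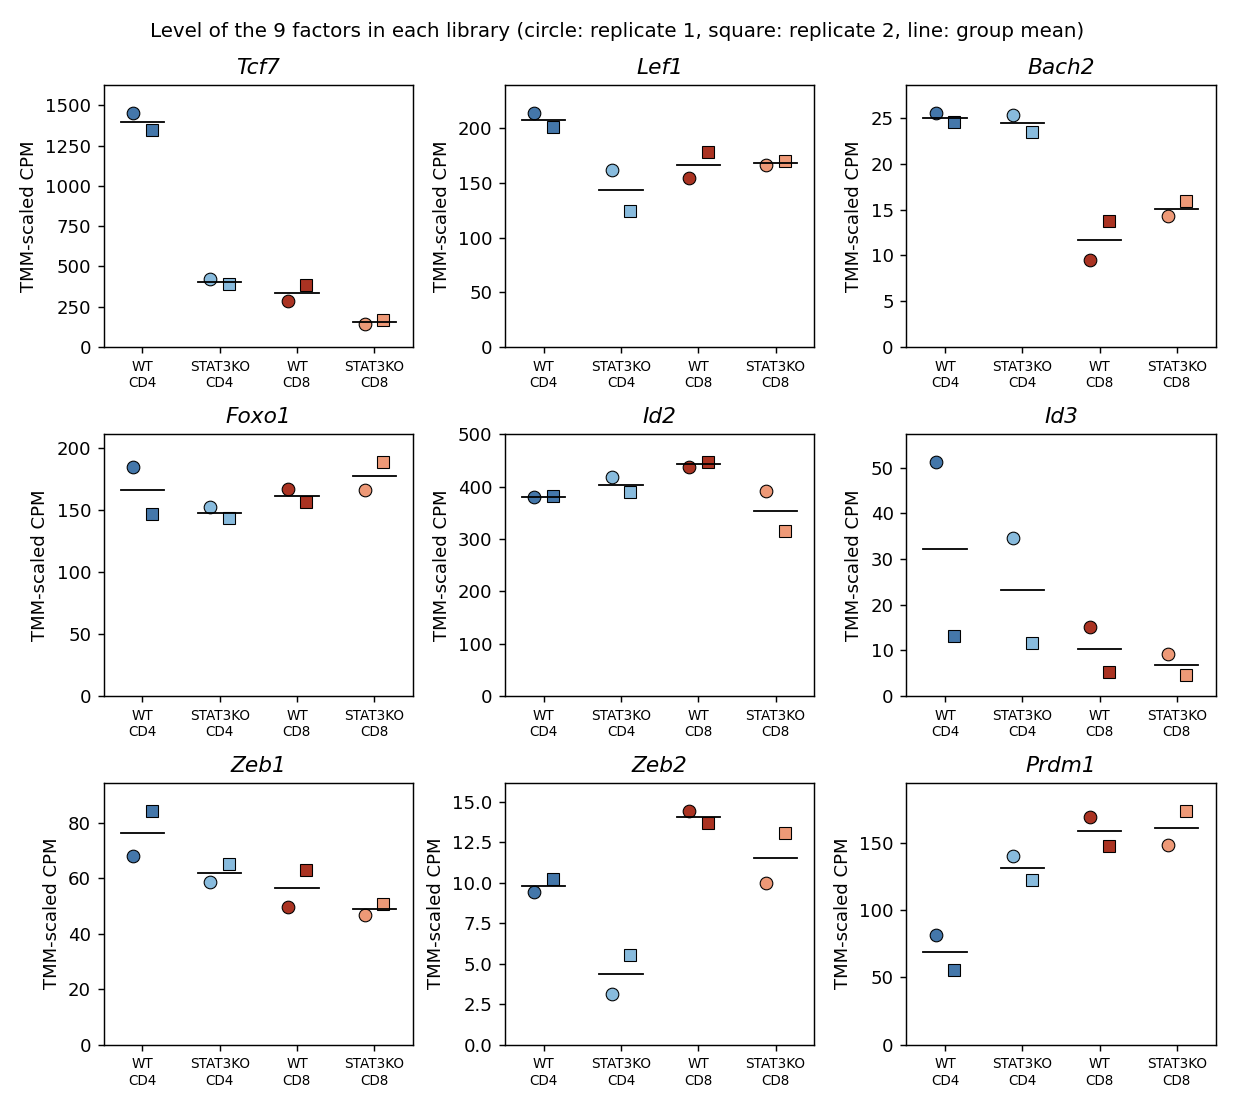
TMM-scaled CPM of each factor (vertical axis, from 0) in the 2 libraries of each group (circles replicate 1, squares replicate 2, lines group means). Tcf7 was lower in STAT3KO than in WT libraries of both lineages, Prdm1 was higher in STAT3KO CD4 (122 and 140.2) than in WT CD4 libraries (55.7 and 81.6), and Id3 was higher in replicate 1 of every group.

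**Figure D2:**
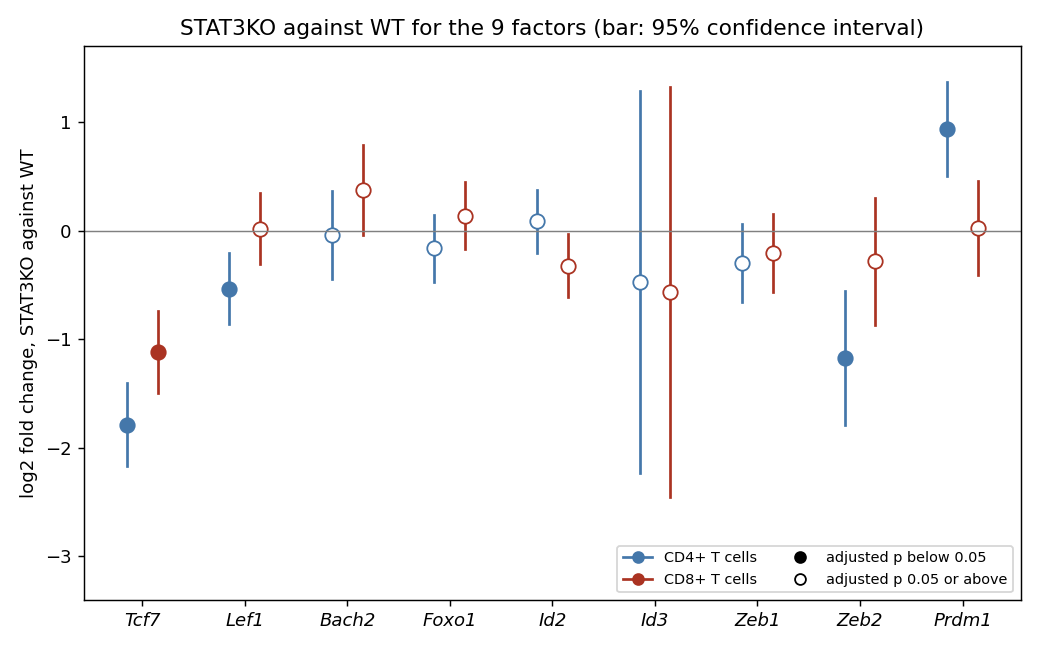
Log2 fold change of STAT3KO against WT (vertical axis) for each factor in CD4+ (blue) and CD8+ (red) T cells, with 95% confidence intervals as bars and filled points for an adjusted p under 0.05. Filled points are Tcf7, Lef1, Zeb2 and Prdm1 in CD4+ and Tcf7 in CD8+ T cells, and the intervals of Id3 are the widest.

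In CD4+ T cells, 2 of the 9 factors were called when either STAT3KO CD4 library or the first WT CD4 library was left out, and 1 when the second WT CD4 library was. The share of all genes called fell as well, from 11.6% to 3.24% and 3.23% without either STAT3KO CD4 library and to 8.74% and 4.42% without either WT CD4 library. The count was 3 without any single CD8 library, where 8.57% to 10.3% of all genes were called. For the CD8+ comparison, leaving out a CD8 library took the share of all genes called from 2.07% to between 0.0548% and 0.266%, and leaving out a STAT3KO CD4 library to 0.563% and 0.58%. With any 1 library left out, the log2 fold change of Tcf7 ranged from -1.87 to -1.74 in CD4+ and from -1.33 to -0.89 in CD8+ T cells. Since the C1q genes separated the libraries by replicate number, the log2 of their sum was also added to the fit. This covariate was chosen after seeing the data. What the covariate fit adjusts for cannot be told apart from the replicate number. In this fit 5 of the 9 factors were called for the CD4+ T cells, where 31.2% of all genes were, with Zeb1 in addition (log2 fold change -0.35, adjusted p 0.0109, against 0.0109 to 0.674 over the 17 alternatives). For the CD8+ T cells 2 were called, where 19.0% of all genes were, with Id2 in addition (log2 fold change -0.32, adjusted p 0.0453, against 0.0365 to 0.589).

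Whether the effect of STAT3KO differed between lineages was tested as an interaction, the effect in CD8+ minus that in CD4+ T cells. None of the factors passed: 0 of 9 were called by edgeR, as were 0% of all genes, with 4 factors (Tcf7, Lef1, Zeb2 and Prdm1) and 982 of the 12428 genes at an unadjusted p under 0.05. DESeq2 called 0 of the factors and 188 genes. Prdm1 had an interaction of -0.91 (SE 0.26, unadjusted p 0.00897, adjusted p 0.362, edgeR), and its interaction was -0.97 within replicate 1 and -0.90 within replicate 2. For Zeb2 it was 0.89 (SE 0.36, adjusted p 0.602), for Tcf7 0.67 (SE 0.23, adjusted p 0.472) and for Lef1 0.55 (SE 0.20, adjusted p 0.522). With the C1q sum as a covariate, 2 factors were called, Prdm1 at -0.93 (adjusted p 0.0212) and Tcf7 at 0.69 (adjusted p 0.0461), and 3.92% of all genes were. The adjusted p of the Prdm1 interaction ranged from 0.0212 to 0.924 over 16 alternatives and that of Tcf7 from 0.0461 to 0.93. The 2 STAT3KO comparisons share no library, but they come from one fit with a shared estimate of the spread. Same-numbered CD4 and CD8 libraries also deviated together over the genes (r of 0.812 in WT and 0.668 in STAT3KO).

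As compared with WT CD4+ T cells, WT CD8+ T cells held less Tcf7 and Bach2 and more Prdm1. In this comparison 3 of the 9 factors were called, 2 lower and 1 higher, where 23.8% of all genes were called, 11.6% lower and 12.2% higher. Tcf7 in CD8+ was 24.0% of its CD4+ level (log2 fold change -2.06, SE 0.17, adjusted p 0.000235) and Bach2 46.7% (-1.10, SE 0.18, adjusted p 0.0039). Prdm1 was 2.31-fold higher (1.21, SE 0.19, adjusted p 0.0033). These 3 were called under all 17 alternatives. Of the others, Id3 showed the largest log2 fold change, -1.66, but its SE was 0.79 and its adjusted p 0.174, with -1.77 within replicate 1 and -1.29 within replicate 2. Zeb1 was lower (-0.44, SE 0.15, adjusted p 0.0808) and Zeb2 higher (0.52, SE 0.25, adjusted p 0.185) by estimates that did not pass the test.

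In STAT3KO T cells, CD8+ against CD4+, 3 of the 9 factors were called as well, where 12.5% of all genes were, 6.67% lower and 5.84% higher. Tcf7 was 38.2% of its CD4+ level (log2 fold change -1.39, SE 0.16, adjusted p 0.0025) and Zeb2 was 2.65-fold higher (1.41, SE 0.27, adjusted p 0.0147). Bach2 was 62.0% (-0.69, SE 0.18, adjusted p 0.0431). Prdm1, at 122 to 174 CPM over these 4 STAT3KO libraries, was higher by a log2 fold change of 0.29 (95% confidence interval -0.14 to 0.73), which did not pass the test. Only 1 factor was called without STAT3KO CD4 replicate 1 or without STAT3KO CD8 replicate 2, Tcf7, with Zeb2 then at adjusted p 0.0669 and 0.0832 and 3.57% and 5.07% of all genes called. Bach2 was called in 9 of the 17 alternatives. The call was lost with limma on log2(RPKM + 1) and log2(RPKM + 0.1) (adjusted p 0.0525 and 0.0770). It was also lost without either WT CD4 library or without any single STAT3KO library. With 1 library left out, the Bach2 log2 fold change ranged from -0.77 to -0.63. With the C1q sum as a covariate, Zeb1 and Id3 were called in both genotypes and Lef1 and Zeb2 in addition in WT, for 7 factors in WT and 5 in STAT3KO T cells. In those fits 41.4% and 29.6% of all genes were called. The comparisons between lineages share libraries with the STAT3KO comparisons and are no independent view of them.

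The ratio of 2 opposed factors within a library does not depend on its scaling. It was taken as log2 of the RPKM ratio and is described without a test, since 2 libraries against 2 cannot give an exact permutation p below 0.333. For Tcf7 over Prdm1, the WT CD4 pair gave 5.08 and 5.52, the STAT3KO CD4 pair 2.51 and 2.60, the WT CD8 pair 1.68 and 2.31 and the STAT3KO CD8 pair 0.85 and 0.88. Tcf7 thus exceeded Prdm1 33.8-fold and 45.9-fold in WT CD4 libraries, and 1.81-fold and 1.84-fold in STAT3KO CD8 libraries. No group overlapped another, and the mean of STAT3KO minus WT was -2.75 for the CD4+ libraries (pooled SD between replicates 0.22) and -1.13 for the CD8+ libraries (0.31).

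Zeb1 over Zeb2 was 3.80 and 3.99 in WT CD4 and 5.17 and 4.51 in STAT3KO CD4 libraries, higher in both STAT3KO libraries. The CD8+ libraries gave 2.73 and 3.15 in WT and 3.18 and 2.90 in STAT3KO libraries, which overlapped. Id3 over Id2 ranged from -5.97 to -2.47, so Id2 was the more abundant of the pair in each library. Its difference between genotypes was -0.45 for CD4+ and -0.14 for CD8+ libraries, smaller than the pooled SD between replicates of 1.23 and 0.84.

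**Figure D3:**
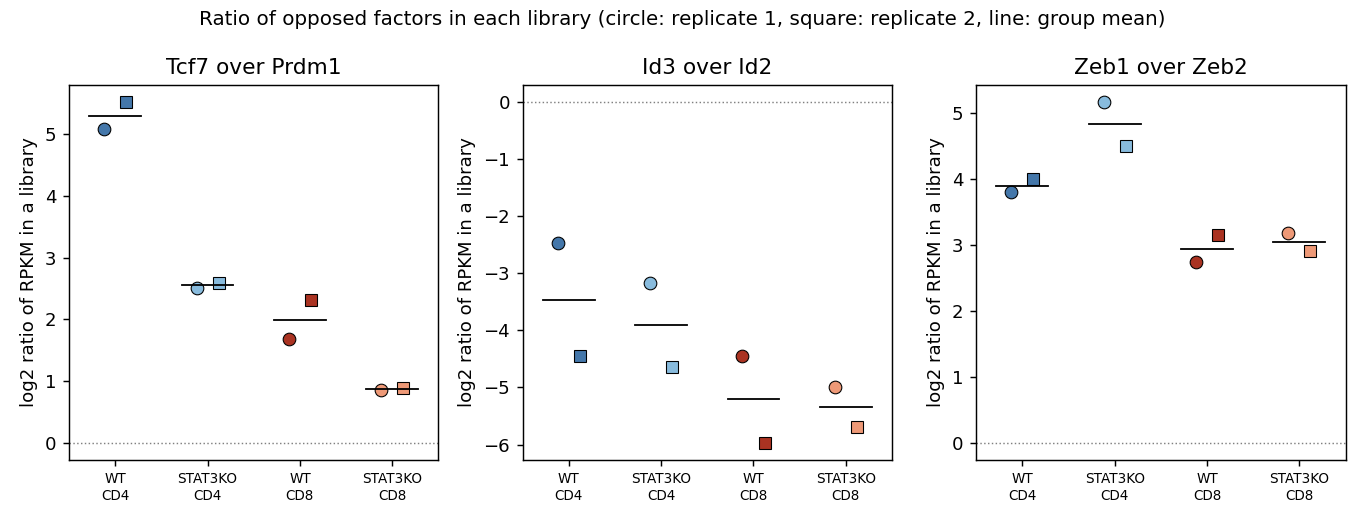
Log2 ratio of RPKM within each library (vertical axis) for Tcf7 over Prdm1, Id3 over Id2 and Zeb1 over Zeb2, with circles for replicate 1, squares for replicate 2, lines for group means and a dotted line at equal levels. Tcf7 over Prdm1 steps down from WT CD4 (5.08 and 5.52) to STAT3KO CD8 (0.85 and 0.88), while Id3 over Id2 is below 0 in all libraries.

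For each factor, the 2 genes with the most similar profile over the 8 libraries were found among 8738 expressed genes, by the root mean square (RMS) difference of log2 CPM centred on each gene's mean. The profile closest to Tcf7 was that of Tbc1d30 (RMS difference 0.19), with 44.8 and 44.2 CPM for WT CD4, 14.2 and 13.1 CPM for STAT3KO CD4, 10.6 and 12.002 CPM for WT CD8 and 6.56 and 6.54 CPM for STAT3KO CD8. Plekho1 came next at 0.25. Against a spread of Tcf7 around its own mean of 1.15, these genes followed it closely. Prdm1 was nearest to Fam83d (0.093) and 4930579G24Rik (0.12), Zeb2 to Tns1 (0.25) and Mfge8 (0.25), and Bach2 to Fchsd2 (0.13) and Tmem185b (0.15). Mfge8 is a bridging protein that macrophages secrete. With replicate 1 first, Mfge8 was at 17.7 and 17.2 CPM for WT CD4 and 8.25 and 9.14 CPM for STAT3KO CD4. It was at 26.9 and 28.8 CPM for WT CD8 and 20.7 and 18.5 CPM for STAT3KO CD8. The part of macrophage RNA in these levels was not tested. Zeb1 was nearest to Cdipt (0.044) and Zkscan1 (0.046). The profiles of Lef1 (nearest Fastkd1 and Kcnq5), Foxo1 (Ahcyl2 and Ibtk) and Id2 (Stard10 and Pstpip1) varied little around their means (0.22, 0.14 and 0.15), so many flat genes lay close to them. The groups, the replicate numbers and the library preparation are shared by all these profiles.

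Id3 was nearest to Fos (RMS difference 0.36) and Jun (0.42), immediate early genes that respond within minutes to stimulation or stress. With replicate 1 first, the Fos level was 1499.5 and 541 CPM for WT CD4, 857 and 337 CPM for STAT3KO CD4, 559.6 and 281 CPM for WT CD8 and 407 and 209.7 CPM for STAT3KO CD8. Jun was at 1164 and 279, 724 and 177, 523 and 167, and 358 and 119 CPM in the same order. Both were higher in replicate 1 of every group, as was Id3, by 3.92-fold in WT CD4, 2.96-fold in STAT3KO CD4, 2.81-fold in WT CD8 and 2.02-fold in STAT3KO CD8. The C1q sum went the other way, higher in replicate 2 by between 4.97-fold and 16.1-fold. For the other factors the ratio of replicate 1 to replicate 2 lay between 0.57 (Zeb2 in STAT3KO CD4) and 1.47 (Prdm1 in WT CD4). What the replicate number stands for is not given in the sources used here, and its part in the Id3 level was not tested.

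**Figure D4:**
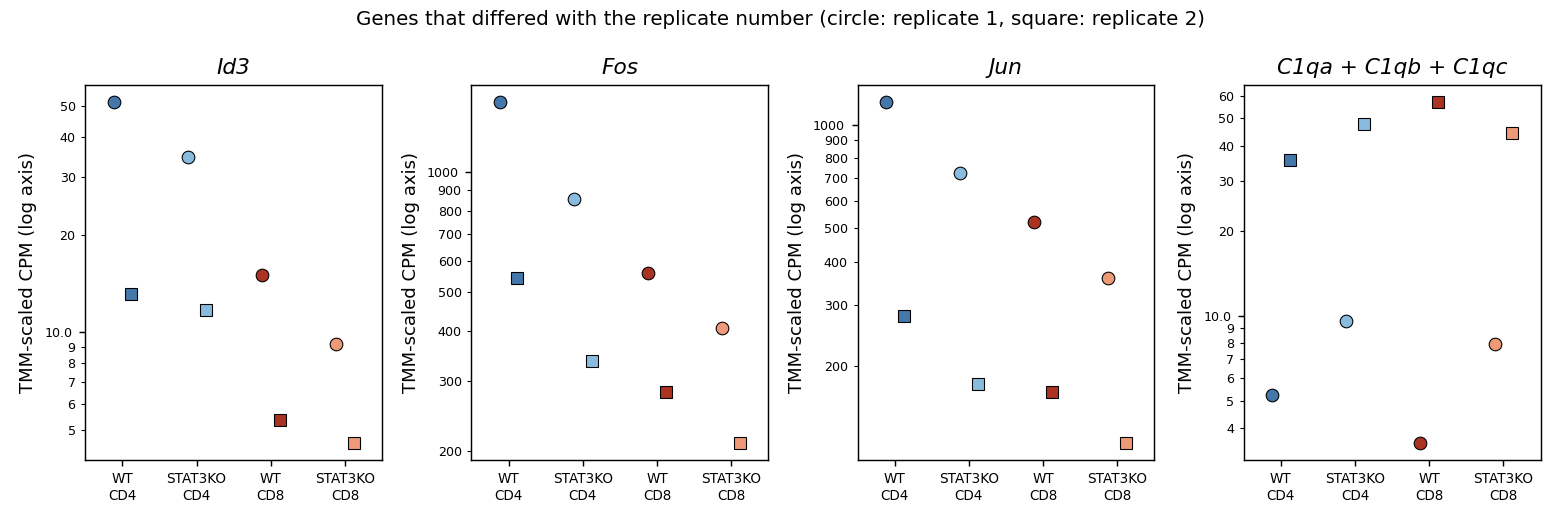
TMM-scaled CPM (vertical axis, log scale) of Id3, Fos, Jun and the sum of C1qa, C1qb and C1qc in each library (circles replicate 1, squares replicate 2). Id3, Fos and Jun are higher in replicate 1 of each group, and the C1q sum is higher in replicate 2, at 35.6 to 57.1 against 3.54 to 9.55.

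Lists of related genes, drawn up with earlier results of these libraries known, were set beside the 9 factors as a description. Of 17 stem-like, naive and memory genes, 5 fell and 1 rose in STAT3KO CD4+ T cells (median log2 fold change -0.0032 against 0.02 over all genes). These 6 are 35.3% of the list, where 11.6% of all genes were called, 5.08% lower and 6.54% higher. The called genes were Igfbp4, an insulin-like growth factor binding protein of naive T cells (-3.29), Satb1, a chromatin organizer (-1.45), Il6ra, the IL-6 receptor (-1.25), Bcl2, a survival factor (-0.61), Actn1, an actin crosslinker (-0.45), and Klf3, a Krüppel-like repressor (0.76). Satb1 was at 626 and 615 CPM in the WT CD4 pair and at 246 and 209.5 CPM in the STAT3KO CD4 pair, which lay far apart. The homing receptor genes Ccr7 and S1pr1 did not pass, at -0.66 and -0.0032. For CD8+ T cells only Satb1 was called, 5.88% of the list against 2.07% of all genes (-1.15, adjusted p 0.0104), at 281 and 309 CPM in WT and 137 and 129 CPM in the STAT3KO pair, and the median was 0.06. The list count in CD4+ T cells was 3 or 2 without either WT CD4 library and 1 without either STAT3KO CD4 library. That in CD8+ T cells was 2 without the first WT CD8 library and 0 without the second or without either STAT3KO CD8 library.

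Of 17 terminal effector genes, 7 rose and 1 fell in STAT3KO CD4+ T cells, together 47.1% of the list against 11.6% of all genes. The median was 1.13 against 0.02 over all genes. Among the 7 were Klrk1, the receptor NKG2D (2.72), Ccl5, a chemokine (2.65), Klrg1, a receptor of terminal effector cells (2.52), and Fasl, the death ligand (1.39). Klrk1 was at 11.7 and 12.2 CPM in the WT CD4 pair and at 78.3 and 79.2 CPM in the STAT3KO CD4 pair, and Ccl5 at 25.9 and 21.5 against 151 and 147 CPM. Gzmb, the cytotoxic granzyme B, fell (-0.65), and Tbx21, the effector factor T-bet (0.98), Ifng (0.16) and Prf1 (0.07) did not pass the test. As for CD8+ T cells, Ccl5 (0.92) and Klrk1 (0.79) rose and Gzmb fell (-1.11), 17.6% of the list against 2.07% of all genes. The median was 0.33 against -0.01 over all genes. Gzmb went from 3384 and 2914 CPM in WT CD8 to 1557 and 1355 CPM in the STAT3KO CD8 pair. The count in CD4+ T cells was 5 without either STAT3KO CD4 library. That in CD8+ T cells was 0 without any one of the 4 CD8 libraries and 1 with only these 4 in the fit.

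Of 24 partners and relatives of the factors, 21 were tested, and 2 were called in STAT3KO CD4+ T cells, 9.52% of the tested members against 11.6% of all genes. The list as a whole was thus near the background. The called genes were Bcl6, a repressor that opposes BLIMP-1 in follicular helper T cells, and Tcf12, an E protein bound by ID proteins (-0.53). Bcl6 was at 114 and 90.3 CPM in the WT CD4 pair and at 21.1 and 23.0 CPM in the STAT3KO CD4 pair (-2.21, SE 0.24, adjusted p 0.0022). It was also the only gene of the list called in CD8+ T cells (4.76% against 2.07% of all genes), from 9.94 and 13.5 to 2.31 and 4.15 CPM (-1.85, SE 0.28, adjusted p 0.0257). The list medians were -0.13 for CD4+ and -0.10 for CD8+ T cells. Ctnnb1, which encodes the TCF-1 partner β-catenin, had log2 fold changes of 0.30 and 0.21, which did not pass the test. The Bcl6 call in CD8+ T cells was lost without any one CD8 library or either STAT3KO CD4 library, and the count in CD4+ T cells was 1 without WT CD4 replicate 2 or either STAT3KO CD4 library. With the C1q sum as a covariate, the counts in CD4+ and CD8+ T cells were 11 and 9 for stem-like, naive and memory genes, 13 and 7 for terminal effector genes, and 8 and 5 for partners and relatives, in fits that called 31.2% and 19.0% of all genes.

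**Figure D5:**
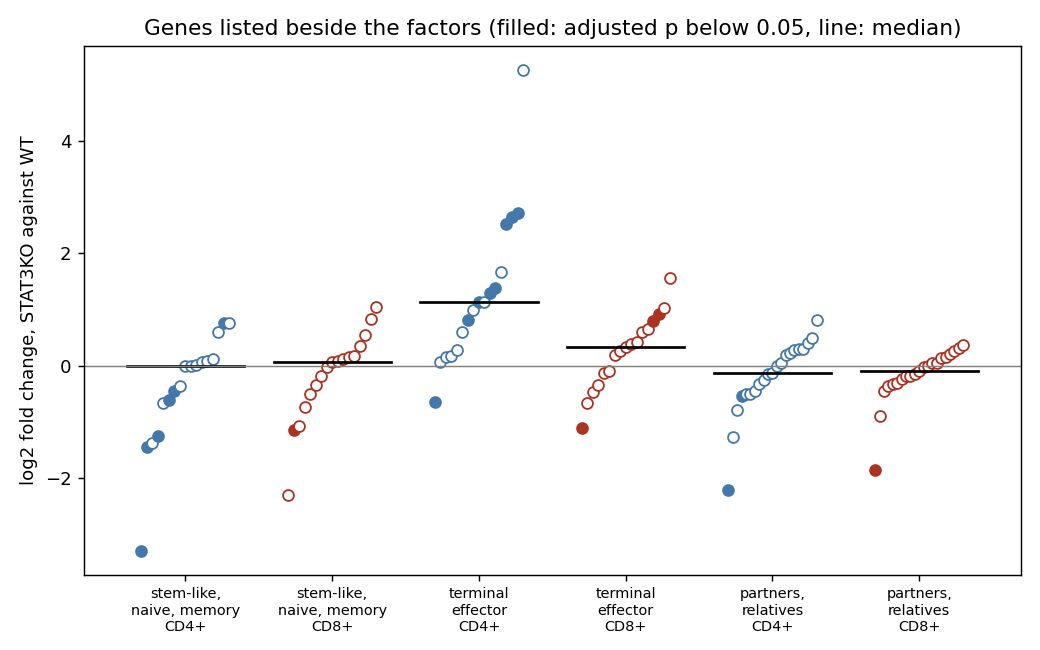
Log2 fold change of STAT3KO against WT (vertical axis) for the tested genes of 3 lists in CD4+ (blue) and CD8+ (red) T cells, sorted within each list, with filled points for an adjusted p under 0.05 and lines at the medians. The terminal effector genes lie highest in CD4+ T cells (median 1.13), and the stem-like, naive and memory genes spread on both sides of 0.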

How the data were processed

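Messenger RNA was measured in 8 libraries, 2 per group, with groups taken from the genotype and cell type of the labels. The authors aligned reads to mm10 with STAR and counted them per RefSeq gene with HTSeq, and the deposited counts are raw whole numbers. The authors also deposited RPKM values, which are these counts scaled by exon length and by a library size 0.989 to 1.05 times the column total. The labels and the methods name different library kits, so whether strand was used in counting is not settled. By GENCODE M21, antisense genes share 13.7% of the exon bases of Lef1, 7.78% of Foxo1 and 5.40% of Bach2. Overlapping genes share 3.30% of the exon bases of Zeb2 and 1.93% of Zeb1, and reads of these pairs cannot be told apart. The growth and treatment labels describe an adipogenic cell line and were not used.

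Genes were kept by filterByExpr (minimum count 10), which left 12428 of 25078. With edgeR 4.0.16 (R 4.3.3, limma 3.58.1) all 8 libraries entered one fit with TMM scaling, a mean per group and no covariate. The two-sided quasi-likelihood test was adjusted by Benjamini-Hochberg over the genes tested, at a threshold of 0.05. Standard errors come from the quasi-likelihood F statistic. On data simulated for the CD4 comparison over 12294 genes, 72.0% of genes changed 2-fold and 96.0% of genes changed 4-fold were called. For the interaction the shares were 27.0% and 91.0%. The changed genes were drawn only from genes with higher counts, and the simulated libraries held no deviation shared by a replicate number. The shares may thus not hold for the measured libraries. In a library, 3 counts correspond to 0.126 to 0.150 CPM, for counting error only.

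The alternatives were RLE factors, total counts, no filter, DESeq2 1.42.0, a replicate block, only the 4 libraries compared, leaving out each library, limma on log2(RPKM + 1) or log2(RPKM + 0.1) and, added after seeing the data, the C1q sum as a covariate, 17 fits in all for a comparison of 2 groups. Genes named are the 9 factors, the check genes, for each factor the 2 nearest profiles among genes whose log2 CPM averaged 3 or more, and for each list and STAT3KO comparison the 4 called genes with the largest change. Other list genes were named after their values were seen. The factors, lists and tests were chosen with earlier results of these data known.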

Additional observations from a re-analysis of the deposited data

Results flagged for a closer look

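Id2 was estimated in opposite directions in the lineages, with neither difference called. Both STAT3KO libraries were above both WT libraries in CD4+ T cells (418 and 389 against 379.6 and 382 CPM) and below them in CD8+ T cells (392 and 315 against 438 and 447 CPM). Groups did not overlap for 53.5% and 49.7% of all genes in these comparisons. The interaction, the STAT3KO effect in CD8+ minus that in CD4+ T cells, was -0.41 (SE 0.18, 95% confidence interval -0.82 to 0.0014, unadjusted p 0.0506, adjusted p 0.63 by edgeR's quasi-likelihood test), so the difference itself did not pass. It ranged from -0.57 to -0.25 over 16 alternatives with adjusted p from 0.142 to 0.9999, and was called in 0 of them.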

How the results depend on the processing

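The count of called factors depended on the fit. With only the 4 libraries compared, 2 were called for STAT3KO against WT among CD4+ and 0 among CD8+ T cells. Leaving out 1 library gave 1 to 3 and 0 to 1 factors in these comparisons, 3 to 4 for CD8 against CD4 in WT, 1 to 3 in STAT3KO T cells, and 0 for the interaction. Across all genes, leaving out 1 library gave 412 to 1307 calls among CD4+ and 7 to 224 among CD8+ T cells (1444 and 257 with all 8 libraries), 1546 to 2598 (2960) and 457 to 1554 (1555) between lineages. With only the 4 libraries compared, 37 genes were called in CD8+ T cells and 1919 between lineages in WT.

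Same-numbered libraries deviated together (r of 0.483 to 0.812 between groups, over 8747 genes). The sample titles also give the libraries of each number their own run of identifiers. There are only 2 pairs, and no label says what the number marks. The main fit held no block for it. With a replicate block, 5 factors were called for STAT3KO against WT among CD4+ T cells, 2 among CD8+ T cells, 7 and 5 for CD8 against CD4 in WT and STAT3KO T cells, and 1 (Prdm1) for the interaction. The factors gained were Zeb1 and Id2 in the STAT3KO comparisons, Id3 and Zeb1 between lineages in both genotypes, and Lef1 and Zeb2 in WT. Id3 then stood at -1.57 (SE 0.18, adjusted p 6.6e-05) in WT and -1.68 (SE 0.19, adjusted p 0.000152) in STAT3KO T cells, against 0.174 and 0.212 with no block. The genes called rose to 3747, 2258, 5232, 3689 and 403. The C1q sum as a covariate, chosen after seeing the data, gave 5, 2, 7, 5 and 2 factors and 3883, 2360, 5149, 3676 and 487 genes. DESeq2 called 885 genes in CD8+ T cells and 188 for the interaction, and the fit with no filter 454 and 44. For the interaction, limma on log2(RPKM + 1) called 13.

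The differences that reversed belonged to factors not called in the comparison concerned. For STAT3KO against WT in CD8+ T cells, total counts turned Lef1 to -0.027 and Prdm1 to -0.017. With 1 library left out, Bach2 in CD4+ T cells ranged from -0.12 to 0.018 and Id3 from -1.48 to 0.80. In CD8+ T cells Lef1 ranged from -0.091 to 0.11, Id3 from -1.16 to 0.35 and Prdm1 from -0.11 to 0.13. Foxo1 between lineages in WT ranged from -0.21 to 0.12, and the interactions of Id3 and Zeb1 from -1.38 to 0.90 and from -0.061 to 0.27. Of the 756 refitted differences of the factors, 688 kept their direction and side of the threshold, 31 lost a call, 20 gained one and 17 reversed. The cause was not tested. Differences in the ratios of factors were equal on the CPM scale. With 1 library left out, Tcf7 over Prdm1 ranged from -2.97 to -2.53 for CD4+ and from -1.44 to -0.82 in CD8+ T cells, while Id3 over Id2 changed sign in both lineages (-1.44 to 0.54 and -0.90 to 0.62) and Zeb1 over Zeb2 in CD8+ T cells (-0.11 to 0.31).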
